A study of Mus musculus with 22 samples.

Results

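Ribosome-bound RNA of dendrites was compared with that of cell bodies (soma) in hippocampal area CA1 of mice, in 4 dendrite and 4 soma immunoprecipitates of tagged ribosomes. Each of these 8 libraries was sequenced once paired-end and once single-end, so that 16 of the 22 samples of the series were used, and a library's 2 runs were taken as 1 replicate. A gene is called agreeing here when the difference, dendrite minus soma, had one sign in mice kept in the home cage and in fear conditioned mice, in both runs. Of 2034 genes tested in both runs, 194 agreed as higher in dendrite (9.54%) and 382 as lower (18.8%). The home cage and fear conditioned differences, however, hardly correlated across genes (r = 0.089 paired-end and 0.10 single-end).

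Every library came from C57BL/6 mice that carry 2 transgenes, Camk2a-tTA and tetO-EGFP-L10a. The Camk2a promoter drives the transactivator tTA, which switches on the large-subunit protein L10a fused to EGFP, and the antibody HtzGFP-19C8 against GFP then pulls down the tagged ribosomes. Tagging is thus limited to cells in which that promoter is active, mainly excitatory neurons, while the dissected tissue holds other cells too. The 4 groups were dendrite and soma of home cage mice and dendrite and soma of fear conditioned mice, with 2 libraries each. Another 3 libraries hold the supernatant, the RNA left unbound, of replicate 2 of both dendrite groups and of fear conditioned soma. The labels give no ages and do not say whether libraries came from separate or pooled animals, and the p-values may then reflect no more than the spread between these samples.

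Most messenger RNAs of a neuron are translated in the cell body, but a subset travels in granules along microtubules into dendrites and is translated near synapses. Textbook members of that subset encode the kinase subunit Camk2a, scaffolds of the postsynaptic density and factors of the translation machinery itself. The dendritic layers of CA1 hold few neuronal cell bodies but many fine processes of astrocytes, which also carry local mRNAs and ribosomes.

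The deposited values were FPKM, fragments per kilobase of transcript and per M fragments mapped, for the 5′ UTR, coding sequence and first stretch of the 3′ UTR of each gene. Libraries were scaled by median ratios among the 8 immunoprecipitates, and genes averaging 1 or more after scaling were tested. From the spacing of low values, depth was 5.65 to 29.9 M mapped fragments (paired-end) and 0.523 to 4.36 M mapped reads (single-end), and 28.4% and 40.4% of the values tested were 0. The lowest depth was in a dendrite library in each run, home cage dendrite 1 (paired-end) and home cage dendrite 2 (single-end). In the latter an FPKM of 1 over 1500 bases is 0.785 reads, so a 0 there may be a gene missed. What part of the zeros in dendrite comes from depth was not tested. Home cage soma 2 stood apart, with a paired-end scaling factor of 0.267 against 0.597 to 2.31 in the other libraries, and fear conditioned dendrite 1 listed 12205 genes above 0 in that run against 3344 to 6147 in the other dendrite libraries. The soma libraries listed 3220 to 9267 in that run. Single rows took much of the summed FPKM before scaling. In the paired-end run Rpsa, a ribosomal protein gene, took 74.0% in home cage soma 2 and Mir135b 26.9% in fear conditioned dendrite 1, and in the other 6 libraries the top row took 1.59 to 7.41%. In the single-end run the top row took 27.9 to 65.9% in 6 of the 8 libraries, Gm3168 in 5 of them and DQ701874 in home cage soma 1, and 7.27% and 9.39% in fear conditioned soma 1 and dendrite 1. For lists and for genes chosen by the naming rule, agreement lost without home cage soma 2 or fear conditioned dendrite 1 is stated beside them.

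Across all genes, very few differences passed the test. The test was limma, which fits each gene and moderates its spread toward a trend over all genes. By it 0 of 2928 genes (0% of those tested) passed an adjusted p of 0.05 in the paired-end run, and 139 (4.75%) had an unadjusted p under 0.05. The smallest adjusted p there was 0.168, for a row listed as Atpase6, named for the mitochondrial ATP synthase subunit 6. In the single-end run 1 of 3835 genes (0.0261%) passed, and 210 (5.48%) were under 0.05 unadjusted. Within the home cage limma called 0 genes in either run, and 154 (5.26%) and 170 (4.43%) had an unadjusted p under 0.05. Within fear conditioning it again called 0, and 153 (5.23%) and 216 (5.63%) were under 0.05 unadjusted. The test of whether the dendrite and soma difference differed between behaviours also gave 0 genes in both runs, and 102 (3.48%) and 118 (3.08%) were under 0.05 unadjusted. Without home cage soma 2, which left 1 soma library in the home cage, 15 genes passed in the paired-end home cage contrast, 1 of them higher in dendrite (Atpase6) and the other 14 lower.

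The row that passed in the single-end run was Mir1906-1, the precursor of a microRNA, at a log2 difference of -10.04 (SE 1.37, limma adjusted p = 0.0291). It was listed at 0 in all 4 dendrite libraries and at 671, 25104, 115 and 625 in the soma libraries home cage 1 and 2 and fear conditioned 1 and 2. All 4 soma libraries lay above all 4 dendrite libraries, and the home cage soma 2 value was far above the other 3. The row is 83 bases long and lies within the span of Meg3, a maternally expressed long noncoding RNA kept largely in neuronal nuclei (mm9 chr12:110782748-110782830, within chr12:110779203-110806804, both on the plus strand). A second copy of the row is on chromosome X, and the mature microRNA, shown because this was the sole row past the threshold, is the same at both loci in RefSeq (GRCm38.p6, chr12:109544588-109544609, plus strand, and chrX:88759485-88759506, minus strand), with its seed, bases 2 to 8, in capitals:
miR-1906: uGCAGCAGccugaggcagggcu
Reads of the precursor, of Meg3 and of the other copy cannot be told apart here. In the paired-end run the row was listed at 0 in all 8 libraries, so the call has no second run, and it was lost without any 1 of the 8 libraries (smallest adjusted p 0.0688 to 0.757 over these fits).

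Meg3 itself agreed as lower in dendrite. Single-end, fear conditioned dendrite 2 stood at 0.738 and the other 3 dendrite libraries at 0, against 158, 26.5, 101 and 15.1 in the soma libraries. In the paired-end run it was at 0 in all 4 dendrite libraries and at 77.5, 0, 3.81 and 0.457 in soma, so that the groups met at 0 through home cage soma 2. The log2 difference was -5.49 (SE 1.12, limma adjusted p = 0.429) in the single-end run and -2.28 (SE 1.18, adjusted p = 0.650) in the paired-end run. Its measured part is 1156 bases, and the other 10275 bases are deposited as the rest of the 3′ UTR, although the RNA is noncoding. That rest, which the rule did not use, differed by -5.22 and -5.70 (home cage and fear conditioned, paired-end) and by -5.98 and -5.47 (single-end).

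Agreement in sign was more common as lower than as higher in dendrite, but this split depended on the scaling and on the minimum level of the genes tested. The 194 genes agreeing higher were 9.54% and the 382 agreeing lower 18.8% of the 2034 genes, with medians over all these genes of 0.00 and -0.25 (home cage and fear conditioned, paired-end) and -0.26 and -0.26 (single-end) on the log2 scale. Genes agreeing higher were 33.7% of all that agreed here, 50.5% with FPKM as deposited (330 higher and 323 lower) and 52.0% with upper-quartile scaling (322 and 297). With a minimum mean scaled FPKM of 5 they were 53.5% (68 and 59), and with no minimum 27.65% (472 and 1235). A difference of at least 1 on the log2 scale in all 4 comparisons was reached by 33 genes as higher (1.62%) and 85 as lower (4.18%), together 118 (5.8%). Across the 2034 genes, which are not independent, the differences of both runs correlated at r = 0.67 in the home cage and 0.58 in fear conditioning. These points share their libraries. Between the home cage and fear conditioned differences, which share no library, r was 0.089 in the paired-end and 0.10 in the single-end run. Within the paired-end run alone 416 genes (20.5%) were higher and 589 (29%) lower in dendrite in both behaviours, and within the single-end run 375 (18.4%) and 671 (33%). Whether these counts exceed those of unrelated differences was not tested.

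**Figure D1:**
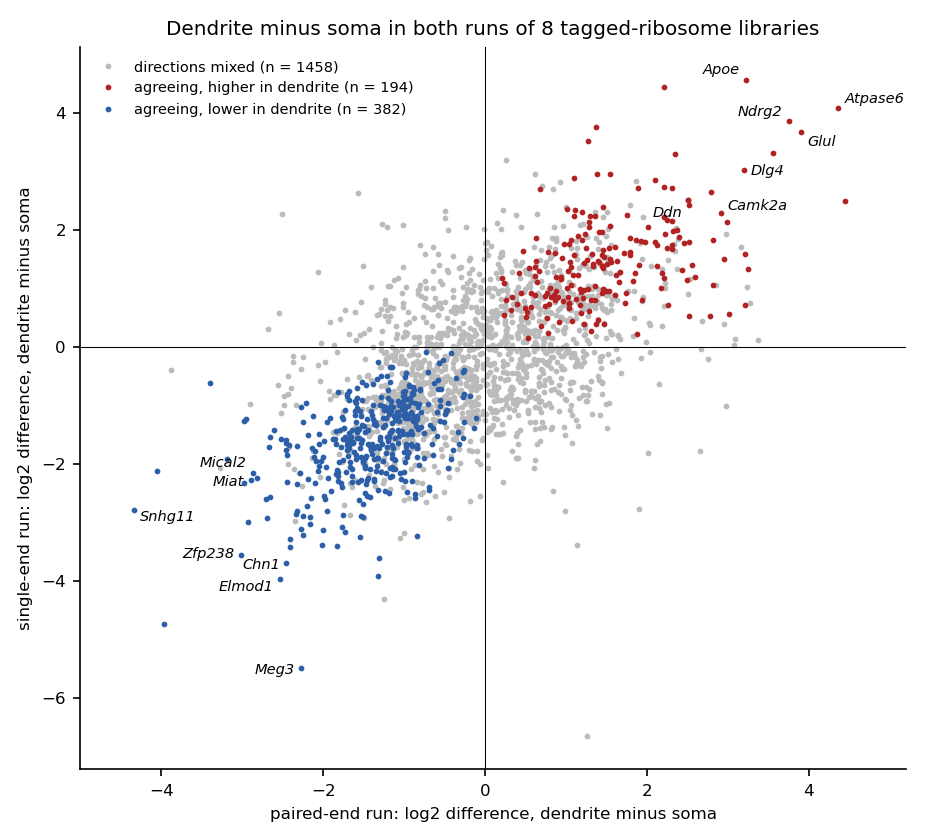
Log2 difference, dendrite minus soma, averaged over both behaviours, in the paired-end run (x axis) and the single-end run (y axis) for 2034 genes, with 194 genes agreeing higher in red, 382 agreeing lower in blue and the others in grey. Apoe, Ndrg2, Glul and Atpase6 lie at the upper right, and Meg3 and Elmod1 at the lower left.

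An unadjusted p under 0.05 in both runs was reached by 12 of the genes agreeing higher (0.59% of the 2034) and 23 of those agreeing lower (1.13%). A stricter count asked that all 4 dendrite libraries lie on one side of all 4 soma libraries in both runs. It held for 7 genes as higher (0.344%) and 19 as lower (0.934%) in dendrite. The 7 higher were the astrocyte-rich genes Glul, Ndrg2 and Apoe, the apolipoprotein gene Apod, Epas1 (a hypoxia-inducible transcription factor), Ehmt2 (a histone methyltransferase) and Atpase6. The 19 lower were Chn1, Miat, Mical2, Trpc4, Ahi1, Sv2b, Grin2a, Dbn1, Eif4g3, Plxna4, D7Ertd715e, Nell2, Nsd1, Synj2, Lpcat4, Usp11, Ampd2, Cacna1a and Ociad2. Those outside the naming rule were named after their values were seen. Fewer libraries make the count easier to meet: without home cage soma 2 it gave 14 higher and 108 lower, and without fear conditioned dendrite 1 it gave 12 and 35. Leaving out home cage dendrite 1 or 2, fear conditioned soma 1 or 2 gave 18, 20, 17 and 14 higher, leaving out fear conditioned dendrite 2 or home cage soma 1 gave 35 lower each, and the 382 agreeing lower became 228 without home cage soma 1.

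Averaged over both behaviours, astrocyte genes had the highest median difference, dendrite minus soma, of the 29 lists with at least 5 members tested, in each run. Of 14 astrocyte markers tested, 7 agreed higher (Slc1a2, Glul, Aldoc, Ndrg2, Apoe, Sparcl1 and Cst3) and 0 lower, against 9.54% and 18.8% of all genes. Their median difference was 1.87 in the paired-end and 1.43 in the single-end run, on the log2 scale, against -0.23 and -0.39 over all genes. In the single-end home cage comparison alone their median, 1.16 relative to all genes, was below that of the heat shock chaperones (1.58) and of the textbook dendritic mRNAs (1.18). None of the 14 passed the limma test.

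Glul encodes glutamine synthetase, the enzyme by which astrocytes turn glutamate into glutamine (mm9 chr1:155747075-155756844). In the paired-end run it stood at 56.1, 36.8, 36.4 and 46.6 in the dendrite libraries (home cage 1 and 2, then fear conditioned 1 and 2, the order used from here on) and at 1.99, 0.988, 3.5 and 1.83 in soma. Single-end values were 35.4, 23.2, 14.3 and 20.8 against 0, 0, 3.05 and 1.67. Every dendrite library was above every soma library in both runs, and the 4 dendrite values lay close together. The log2 difference was 3.91 (SE 1.03, limma adjusted p = 0.650) in the paired-end run and 3.68 (SE 0.98, adjusted p = 0.675) in the single-end run. An exact permutation test, two-sided, gave p = 0.0286 in each run, the smallest that 4 against 4 libraries allow, and 0.0857 and 0.114 when adjusted over the 12 genes tested that way.

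Ndrg2, a gene abundant in astrocytes (mm9 chr14:52524946-52533163), stood at 26.3, 18.6, 9.21 and 58.7 in dendrite, against 0.181, 0.396, 2.19 and 0.848 in soma in the paired-end run. Apoe, the main lipid carrier of the brain (mm9 chr7:20281593-20284515), stood at 8.19, 40.8, 18.3 and 4.21 against 0.215, 1.19, 0.629 and 0.169. Both genes also separated in the single-end run, where the log2 differences were 3.86 (SE 1.18) for Ndrg2 and 4.57 (SE 1.02) for Apoe. Slc1a2, the main astrocytic glutamate transporter, stood at 28.6, 41.1, 103 and 5.70 against 4.59, 2.21, 7.34 and 0.456. Its groups overlapped through fear conditioned dendrite 2. Aldoc, an astrocyte-rich glycolytic enzyme, overlapped through fear conditioned soma 1, which stood at 48.0 against 0, 0 and 0.329 in the other soma libraries, and it no longer agreed without home cage soma 2 or without fear conditioned soma 2.

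The sum over all 24 astrocyte markers was 210 to 318 in dendrite and 21.3 to 81.3 in soma in the paired-end run, with no overlap, and 194 to 434 against 54.6 to 227 in the single-end run, with overlap. No marker was at 0 in all 8 libraries. In the unbound RNA 13 of the 14 tested markers were higher in both dendrite supernatants than in the soma supernatant, in either run. Of all genes measured there 36.7% (paired-end) and 35.5% (single-end) were. This was not particular to astrocytes, as all 4 oligodendrocyte markers (either run) and all 2 and 3 microglia markers (paired-end and single-end) measured there were higher too. Glul stood there at 97.4 and 117 against 5.6 (paired-end). Astrocyte RNA thus moved with the dendrite and soma contrast, its part in the other differences was not tested, and in bulk libraries more cells or processes of a type cannot be told apart from more RNA per cell. Without home cage soma 2 the list no longer agreed, as its single-end home cage median then equalled that of all genes (0.00 relative to them, against 1.16 with it).

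The sums of the other marker lists overlapped between locations in the paired-end run. Of the CA1 pyramidal neuron markers 7 of 17 were tested, with Camk2a agreeing higher and Neurod6 and Itpka lower. Dcn was at 0 in all 8 single-end immunoprecipitates. The sum of that list was 72.9 to 589 in dendrite and 22.4 to 167 in soma (paired-end). Camk2a alone stood at 58.6 to 586 in dendrite and 8.61 to 63.3 in soma, so the sum mostly follows that gene in dendrite. The median difference of the 7 tested was -0.86 in the paired-end and -1.24 in the single-end run, and the list did not agree. Summed microglia markers were 2.60 to 16.9 against 2.96 to 9.13, oligodendrocyte markers 8.71 to 63.7 against 1.32 to 72.4 and interneuron markers 0.521 to 18.7 against 2.46 to 18. Markers of the dentate, CA3 and CA2 came to 0.186 to 35.8 against 2.24 to 6.6 in the paired-end run, and to 1.26 to 6.25 against 6.57 to 22.2 in the single-end run, where dendrite lay below soma with no overlap. Vascular, ependymal, choroid and blood markers came to 7.36 to 152 against 0.109 to 14.4 (paired-end), with Hbb-b1 alone at 151 in home cage dendrite 1 and Ttr alone at 115 in fear conditioned dendrite 2. Of these last 2 lists 1 gene each was tested in both runs.

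**Figure D2:**
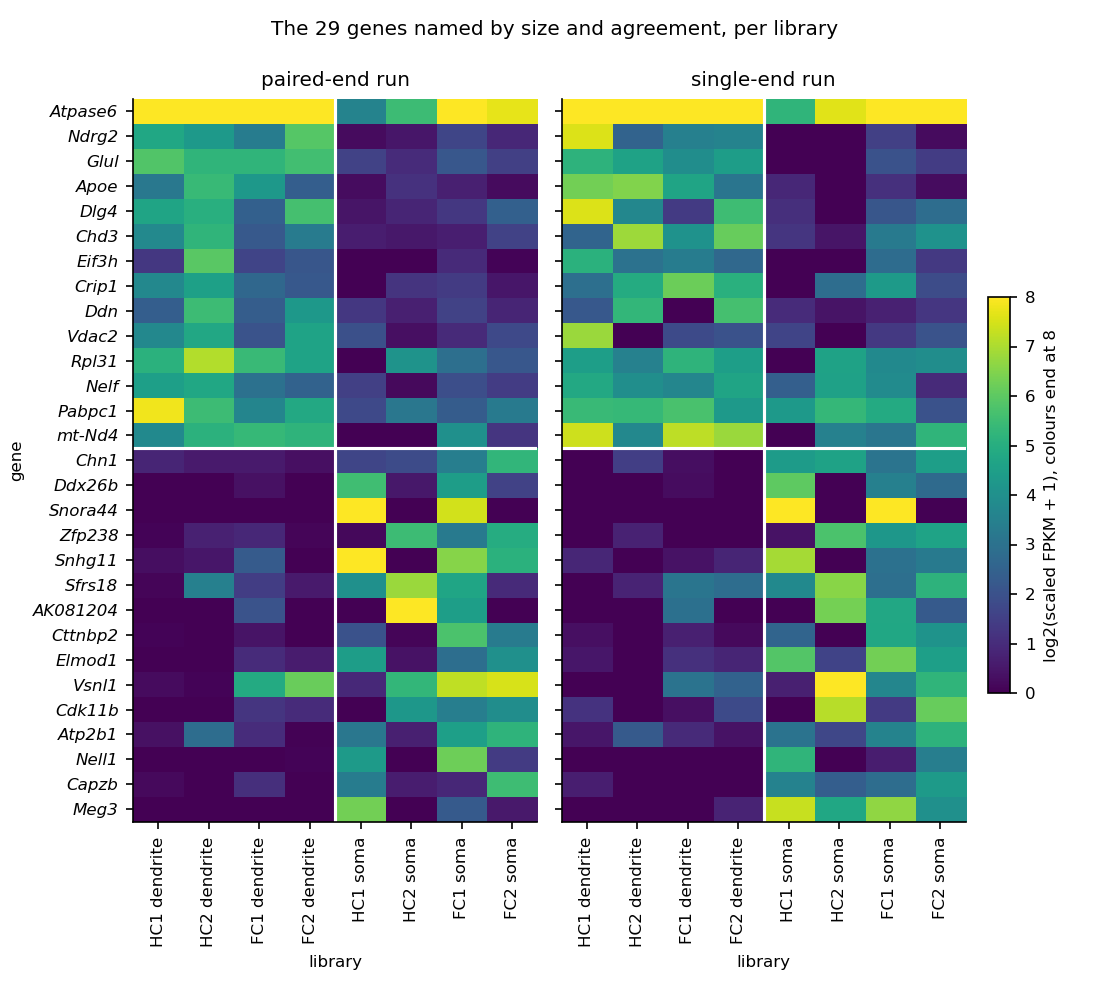
Log2(scaled FPKM + 1) of 14 genes named as higher (upper rows) and the 15 named as lower (lower rows) in dendrite, in the 8 tagged-ribosome libraries of the paired-end run (left) and the single-end run (right), with colours ending at 8. The upper rows are bright on the left of each panel and the lower rows on the right, and many single cells are dark in either set.

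Genes known from textbooks as dendritic mRNAs stood high in dendrite more often than all genes. Of 27 tested, 10 agreed higher (Eef1a1, Camk2a, Ppp1r9b, Shank1, Dlg4, Ddn, Kif5a, Dlgap3, Rab11fip4 and Psd) and 1 lower (Psap), against 9.54% and 18.8% of all genes. The median difference was 0.81 in the paired-end and 0.72 in the single-end run. Of 14 scaffolds of the postsynaptic density tested, 7 of which are also in the first list, 5 agreed higher (Shank1, Dlg4, Ddn, Dlgap3 and Homer2) and 0 lower, with medians of 0.85 and 0.47. None of these genes passed the limma test.

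Camk2a encodes the alpha subunit of calcium/calmodulin-dependent kinase II (mm9 chr18:61085286-61147806). It stood at 58.6, 586, 114 and 382 in dendrite, against 24.7, 8.61, 28.9 and 63.3 in soma in the paired-end run, where home cage dendrite 1 fell below fear conditioned soma 2. Single-end it stood at 704, 205, 66.7 and 345 against 41.0, 45.3, 45.4 and 63.4, with no overlap. The log2 difference was 2.92 (SE 1.10, limma adjusted p = 0.650; exact permutation p = 0.0571) and 2.30 (SE 1.16, limma adjusted p = 0.675; exact permutation p = 0.0286). Its sister subunit Camk2b and the inhibitor Camk2n1 agreed as lower in dendrite, at low levels (paired-end means of 0.710 against 4.23 and 1.45 against 2.04). Their log2 differences were -1.02 (SE 0.95) and -0.69 (SE 0.86) in the paired-end and -0.98 and -2.39 in the single-end run. Of 10 calcium/calmodulin kinases and calmodulins tested 20% agreed lower and 10% higher, near the 18.8% and 9.54% of all genes.

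Dlg4 encodes PSD-95, the central scaffold of excitatory synapses (mm9 chr11:69832107-69859033). It stood at 24.4, 32.0, 4.5 and 49.3 in dendrite, against 0.362, 0.771, 1.43 and 4.43 in soma in the paired-end run. The groups did not overlap there, although fear conditioned dendrite 1 exceeded fear conditioned soma 2 by little, and in the single-end run that dendrite library, at 1.58, lay below 2 soma libraries at 3.37 and 6.23. The log2 differences were 3.21 (SE 1.09) and 3.03 (SE 1.29).

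Ddn encodes dendrin, a postsynaptic protein (mm9 chr15:98634213-98638356). It stood at 4.22, 44.2, 4.17 and 18 in dendrite against 1.45, 0.641, 2.02 and 0.771 in soma, with no overlap, and at 3.6, 38.1, 0 and 48.5 against 0.973, 0.341, 0.678 and 1.42 in the single-end run, where fear conditioned dendrite 1 was at 0. The exact permutation p in the paired-end run was 0.0286 for Dlg4 and for Ddn, 0.0857 when adjusted over the 12 genes. Without fear conditioned dendrite 2, neither Dlg4 nor Ddn agreed across all 4 comparisons.

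Ppp1r9b, which encodes the spine protein spinophilin, stood at 95.0, 237, 14.6 and 184 in dendrite, against 1.97, 16, 17.2 and 8.62 in soma in the paired-end run. Home cage soma 2, at 87.8, was the highest of the 8 libraries in the single-end run. Shank1, a scaffold of the deep postsynaptic density, stood at 31.5, 82.7, 9.89 and 31.4 against 14.5, 97.2, 4.71 and 4.27. Its groups overlapped in both runs, and its single-end value of 586 in fear conditioned dendrite 2 was far above the other 7. Exact permutation p-values for both genes were 0.0571 to 0.571. Both lost their agreement without home cage soma 1, Ppp1r9b also without fear conditioned dendrite 2 and with FPKM as deposited, and Shank1 without home cage dendrite 2.

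Of the 27 textbook dendritic mRNAs 16 did not agree, Mtap2 and Nrgn among them. Mtap2, the dendritic microtubule protein MAP2, differed by 0.74 in the paired-end and -0.08 in the single-end run. Nrgn, a calmodulin-binding protein, was at 0, 0, 1.11 and 0 in dendrite against 0, 8.46, 0.261 and 25.7 in soma (paired-end), and differed by -1.81 and -1.82. Celf4, an RNA-binding protein outside that list, did not agree either. It differed by 3.28 in the paired-end run, while in the single-end run it differed by 3.29 in the home cage and by -1.77 in fear conditioning. The difference between behaviours did not pass the limma test for any of these genes.

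The 2 lists leaned on few libraries. Relative to all genes, the median of the dendritic mRNAs was 1.05 and 0.78 (home cage and fear conditioned, paired-end) and 1.18 and 0.18 (single-end), and that of the scaffolds 1.20, 0.76, 0.80 and 0.31. Without fear conditioned dendrite 2 the single-end fear conditioned median turned to -0.69 for both lists. Without fear conditioned soma 2 that of the scaffolds turned to -0.34, and without home cage dendrite 2 their paired-end median over both behaviours was -0.03 against 0.85. In the unbound RNA 15 of 26 dendritic mRNAs were higher in both dendrite supernatants and 4 lower in both (paired-end), against 36.7% and 36.3% of all genes measured there.

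**Figure D3:**
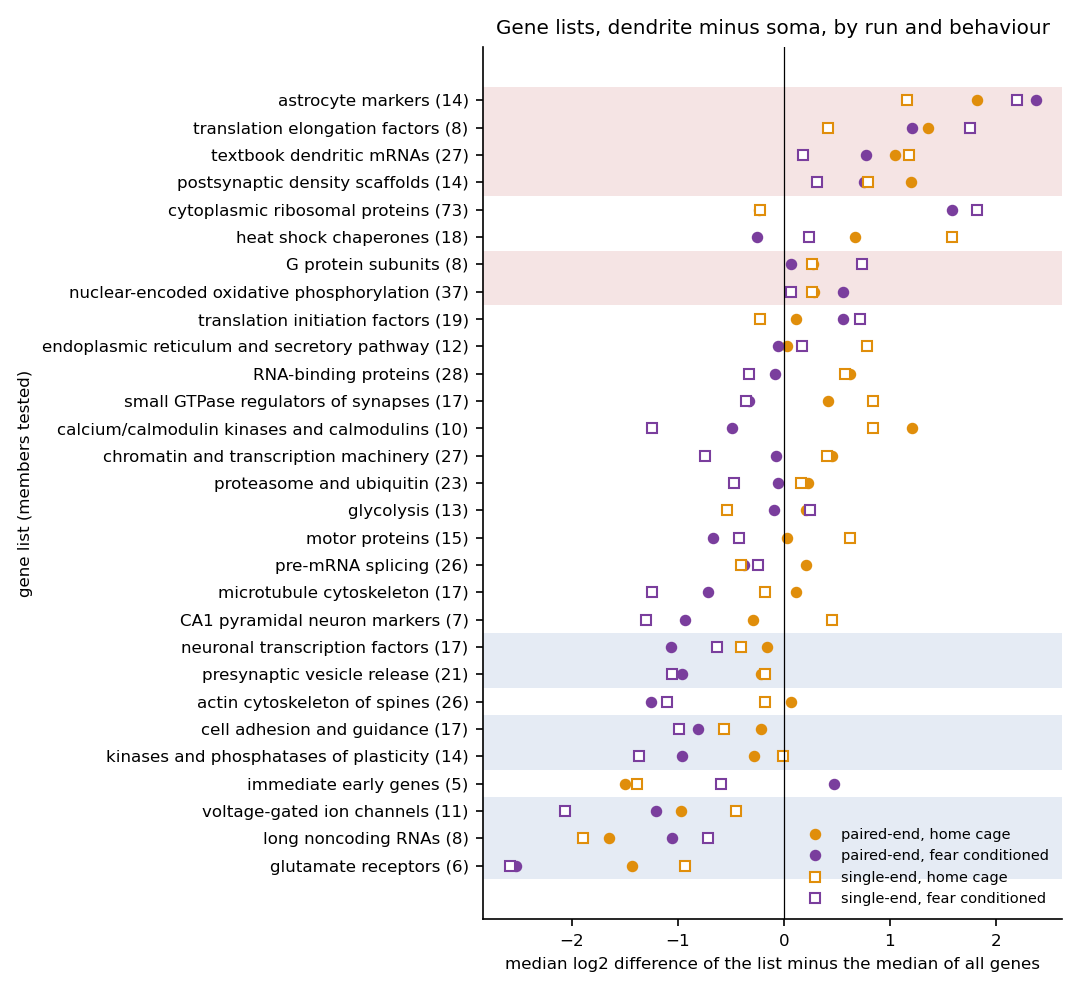
Median log2 difference, dendrite minus soma, of each of 29 gene lists minus the median of all genes, in both runs (filled circles paired-end, open squares single-end) and behaviours (orange home cage, purple fear conditioned), with the number of members tested in brackets. Shaded lists have all 4 medians on one side of 0: 6 higher, with astrocyte markers in the top row, and 7 lower, including glutamate receptors, long noncoding RNAs and voltage-gated ion channels.

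Genes of the translation machinery were mixed. All 8 elongation factors tested had positive average differences in both runs (medians 1.11 and 0.83). Of all 2034 genes 880 (paired-end) and 801 (single-end) had positive ones. In each behaviour and run 1 of the 8 agreed, Eef1a1, which delivers aminoacyl-tRNA to the ribosome. That is 12.5%, near the 9.54% of all genes. Eef1a1 stood at 816, 370, 236 and 705 in dendrite, against 100, 496, 206 and 141 in soma, and overlapped (log2 difference 1.28, SE 0.82; exact permutation p = 0.114). It no longer agreed without home cage soma 2 or without home cage dendrite 1. Eef2, the translocation factor, was at 1128 in home cage dendrite 1 and at 69.2 to 160 in the other dendrite libraries, against 19.2 to 370 in soma. Without home cage soma 1 the elongation factors no longer agreed, with a relative single-end home cage median of -0.07 against 0.42. Of 19 initiation factors 5 agreed higher (Pabpc1, Eif2s2, Eif3f, Eif3h and Eif3c) and 4 lower (Eif1, Eif4g3, Eif4a2 and Eif4g1). These are 26.3% and 21.1%, against 9.54% and 18.8% of all genes. Pabpc1, the cytoplasmic poly(A)-binding protein, stood at 225, 44.2, 11.5 and 27.4 against 2.41, 8.06, 4.02 and 8.62 in the paired-end run, with no overlap, and overlapped in the single-end run.

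Of 73 genes for cytoplasmic ribosomal proteins 18 agreed higher (24.7%, against 9.54% of all genes) and 0 lower, but the list as a whole did not. Relative to all genes its median was -0.23 in the home cage and 1.58 in fear conditioning in the paired-end run, and -0.23 and 1.82 in the single-end run. Among the 18 were Rpl4, Rpl5, Rpl11, Rpl31, Rpl32 and Rplp0 of the large subunit and Rps15, Rps16 and Rps24 of the small subunit. Rpl31 stood at 33.6, 133, 41.6 and 24.1 in dendrite against 0, 16.2, 6.66 and 3.52 in soma in the paired-end run with no overlap, and overlapped in the single-end run. It no longer agreed without home cage soma 1. These genes have many near-identical pseudogene copies, and the sources used here do not say how shared reads were placed, so single members are uncertain.

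Messenger RNAs of the translation machinery often start with a pyrimidine tract that links them to growth signalling. A tract was scored as a C followed by at least 6 letters that are C or T, on the gene's strand, in the 30 bases centred on the RefSeq start, with overlapping matches counted once. It was found in 16.4% of the 27025 genes of the RefSeq table (GRCm38.p6), in 30 of the 57 ribosomal protein genes matched there (52.6%), in 6 of the 13 matched genes among the 18 that agreed and in 23 of the 39 other tested ones (59.0%). A match in this window was thus more frequent in the family than in all genes, and no more frequent among its agreeing members. The window takes in bases before the start, so a match need not lie in the messenger RNA. In the sequences below, the match of Rpl4 and the first of Rpl31 lie wholly before the centre of the window. Shown are 4 of those with a tract, with every match in capitals (Rpl31 has 2), to let its place and letters be seen:
Rpl4 (chr9:64173372-64173401, plus strand): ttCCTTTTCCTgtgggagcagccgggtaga
Rpl31 (chr1:39367836-39367865, plus strand): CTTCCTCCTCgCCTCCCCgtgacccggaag
Rpl35a (chr16:33056467-33056496, plus strand): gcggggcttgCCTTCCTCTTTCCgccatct
Rpl38 (chr11:114668565-114668594, plus strand): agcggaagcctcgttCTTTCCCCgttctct
The log2 differences of these genes were 2.32, 3.26, 2.22 and 2.31 in the paired-end and 1.99, 1.33, 2.73 and 1.75 in the single-end run.

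Atpase6, a mitochondrial row, had the lowest p of the paired-end run. It stood at 1514, 2001, 1414 and 1819 in dendrite, against 10.8, 43.7, 393 and 208 in soma, with every dendrite library at least 1414 and no soma library above 393. Its single-end values were 5631, 2160, 2938 and 4194 against 36.7, 199, 661 and 367. The log2 difference was 4.36 (SE 0.74, limma adjusted p = 0.168) in the paired-end and 4.08 (SE 0.98, adjusted p = 0.675) in the single-end run. It passed when paired-end FPKM were used as deposited (5.31, adjusted p = 0.00180). The part measured is 201 bases, with 644 bases of the row left out. The row joins a stretch of the mitochondrial genome (mm9 chrM:7763-8607) with a nuclear copy on chromosome 1, so its source is uncertain. mt-Nd4, a row named for a subunit of respiratory complex I, has 496 bases measured and 1171 left out. It stood at 12.9, 33.9, 40.0 and 35.6 against 0, 0, 15.1 and 1.34, and overlapped through home cage dendrite 1. Which mitochondrial genes the measured bases of these rows cover was not tested. Both rows were higher in both dendrite supernatants than in the soma one. Of 37 nuclear genes of oxidative phosphorylation 4 agreed higher (Cox7c, Cox6a1, Cox6b1 and Cox4i1) and 3 lower (Ndufs3, Ndufs7 and Atp5d). These are 10.8% and 8.1% of the list, against 9.54% and 18.8% of all genes. That list and the 8 G protein subunits (Gnas higher, Gng3 lower) each had relative medians as near to 0 as 0.07, and they agreed in 8 and 7 of 14 alternatives. Without home cage soma 2 the single-end home cage median of the first was 0.00 relative to all genes, and without fear conditioned dendrite 1 the paired-end fear conditioned median of the second was -0.33. Gnas too no longer agreed without fear conditioned dendrite 1, without fear conditioned soma 1 or with a pseudocount of 5.

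Of the genes named as higher, Dlg4, Ddn, Rpl31, Pabpc1 and 5 others were chosen as separated in the paired-end run only. Their lack of overlap there and their overlap in the single-end run follow from that rule. The 5 others were Chd3 (a chromatin remodeller), Crip1, Eif3h, Vdac2 (a channel of the outer mitochondrial membrane) and Nelf. Their log2 differences ran from 2.43 to 2.79 in the paired-end and from 1.32 to 2.65 in the single-end run. Chd3 stood at 12.5, 36.9, 3.67 and 9.04 against 0.544, 0.434, 0.604 and 1.98. Crip1, a small LIM-domain protein, stood at 12.2, 22.2, 5.41 and 3.65 against 0, 1.32, 1.63 and 0.406. Nelf no longer agreed without home cage soma 1, nor Vdac2 without home cage dendrite 1 or fear conditioned soma 1.

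Genes agreeing as lower in dendrite included many that encode membrane and release proteins of neurons. Of 11 voltage-gated ion channel genes tested, 8 agreed lower (among them Scn8a, Cacna1e, Cacna1a, Kcnma1 and Kcnd2) and 0 higher, with median differences of -1.16 and -1.58. Of 6 glutamate receptor genes 3 agreed lower (Grm5, Grin2b and Grin2a) and 0 higher, with medians of -1.98 and -2.02. Of 21 genes of presynaptic vesicle release 8 agreed lower (Dnm1, Nrxn3, Atp6v0c, Rab3a, Syt11, Sv2b, Pclo and Syp) and 0 higher, with medians of -0.90 and -1.0. Relative to all genes the single-end home cage median of the release genes was -0.17, and it became 0.05 with a pseudocount of 0.1, 0.11 without home cage dendrite 1 and 0.00 without home cage soma 1, so that the list no longer agreed. The background was 18.8% lower and 9.54% higher, and no member passed the limma test.

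Grin2a, the GluN2A subunit of NMDA receptors (mm9 chr16:9577803-9992626), stood at 0, 0, 0.107 and 0.00687 in dendrite, against 5.50, 1.09, 7.10 and 5.28 in soma in the paired-end run, with no overlap in either run (log2 difference -2.32, SE 0.78, and -2.81, SE 0.88). Grm5, a metabotropic receptor, stood at 0.0347, 0, 0.462 and 0.130 against 29.9, 0.0558, 17.1 and 18.8. Home cage soma 2 fell among the dendrite values, and the other 3 soma libraries lay far above them. Grm5 no longer agreed without home cage soma 1. Gria2, an AMPA receptor subunit listed among textbook dendritic mRNAs, differed by 0.14 in the home cage and -4.42 in fear conditioning (paired-end) and by -0.63 and -3.18 in the single-end run. The interaction did not pass the limma test for any of the 6.

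Cacna1a, the pore of P/Q-type calcium channels, stood at 0, 0.517, 0.588 and 0.248 in dendrite against 1.06, 2.96, 3.31 and 2.49 in soma, with no overlap in either run. Scn8a, a sodium channel of the axon initial segment and nodes, stood at 0.0489, 0.0284, 0.835 and 0.00437 against 0.634, 54.2, 4.01 and 0.787, and overlapped through fear conditioned dendrite 1. It no longer agreed without home cage soma 1. The 3′ UTR remainder of Scn8a was also lower in dendrite in all 4 comparisons (-1.46 to -2.60). Sv2b, a synaptic vesicle glycoprotein, was listed at 0 in 3 dendrite libraries and at 0.121 in fear conditioned dendrite 1, against 4.21, 1.46, 3.74 and 15.6 in soma. Snap25 and Vamp2, which form the fusion complex and had the highest levels of the list, did not agree. In the unbound RNA 5 of 6 channel genes and 12 of 21 release genes were lower in both dendrite supernatants than in the soma one (paired-end), against 36.3% of all genes.

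Of 8 long noncoding RNAs tested, 4 (50%, against 18.8% of all genes) agreed lower in dendrite (Malat1, Snhg11, Meg3 and Miat) and 0 higher, with medians of -1.83 and -1.65 over the 8. None passed the limma test. Miat, a nuclear RNA (mm9 chr5:112642248-112657968), stood at 0.0343, 0.0150, 0.0844 and 0.00307 in dendrite, against 10.4, 1.21, 24.9 and 4.41 in soma, and did not overlap in either run (log2 difference -2.90, SE 0.92, and -2.28, SE 0.97; exact permutation p = 0.0286 in each run, 0.0857 and 0.114 adjusted over the 12 genes). Malat1, another nuclear RNA and the most abundant of the 4 (mm9 chr19:5795690-5802671), stood at 392, 236, 215 and 70.6 against 619, 606, 1541 and 339, and overlapped through home cage dendrite 1. Snhg11, a host transcript of small nucleolar RNAs, stood at 0.234, 0.406, 3.94 and 0 against 453, 0, 91.6 and 33.4. Home cage soma 2 was at 0 there, as for Meg3. Snhg11 no longer agreed without home cage soma 1, nor Malat1 with FPKM as deposited. Rpph1, the RNA of ribonuclease P, stood at 691 ± 769 in dendrite and 649 ± 565 in soma (SD, n = 4, paired-end), did not agree, and changed direction with the scaling.

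Chn1, a Rac-inactivating chimaerin (mm9 chr2:73448717-73613403), was the one gene of the naming rule's highest tier that was lower in dendrite. It stood at 0.790, 0.486, 0.508 and 0.267 in dendrite, against 2.18, 2.51, 9.72 and 37.4 in soma, and in the single-end run at 0, 1.82, 0.222 and 0 against 20.1, 23.4, 7.52 and 21.2. It did not overlap in either run (log2 difference -2.46, SE 0.89, and -3.70, SE 0.97, limma adjusted p = 0.650 and 0.675). Its 3′ UTR remainder differed the same way in all 4 comparisons (-1.58 to -3.39), and it stood at 1.87 and 3.24 in the dendrite supernatants against 19.4 in the soma one.

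The other 13 genes named as lower beside Meg3 had log2 differences of -2.28 to -4.34 in the paired-end and -2.33 to -4.74 in the single-end run. They included Zfp238 (a transcriptional repressor of the forebrain), Vsnl1 (a neuronal calcium sensor), Atp2b1 (a plasma membrane calcium pump), Capzb (an actin-capping subunit) and Cttnbp2 (a cortactin partner in spines). Zfp238 stood at 0.0517, 0.666, 0.872 and 0.0768 against 0.129, 44.2, 8.75 and 29.7, and overlapped through home cage soma 1. Elmod1 stood at 0, 0, 0.984 and 0.523 against 20.8, 0.321, 6.39 and 15.1, and overlapped through home cage soma 2 in that run but not in the single-end run. Snora44, a row of 120 bases, was at 0 in all 8 dendrite runs and in both runs of home cage soma 2 and fear conditioned soma 2, so that it rests on the 2 soma libraries of replicate 1, at 337 and 174 (paired-end). Zfp238, Cdk11b and AK081204 no longer agreed without home cage soma 2. Ddx26b, Snora44, Cttnbp2, Atp2b1 and Nell1 no longer did without home cage soma 1, and Sfrs18 lost its agreement without either fear conditioned soma library. Snora44 and AK081204 lost theirs without fear conditioned soma 1 as well, and Atp2b1 without home cage dendrite 1 or with FPKM as deposited.

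Actin genes of spines gave 9 agreeing lower of 26 (Pfn1, Add2, Actg1, Cttnbp2, Capzb, Dbn1, Wasf1, Cap2 and Tmod2) and 0 higher. That is 34.6% lower, against 18.8% of all genes, yet the list's paired-end home cage median was 0.07 above that of all genes, so the list did not agree. Pfn1, profilin, which feeds actin monomers to filaments, stood at 0, 0.749, 5.0 and 3.65 in dendrite against 15.1, 4.49, 103 and 65.2 in soma (paired-end; exact permutation p = 0.0571) and differed by -0.61 in the single-end run. It no longer agreed without home cage dendrite 1, without fear conditioned dendrite 2, with FPKM as deposited or with upper-quartile scaling. Dbn1, drebrin, a spine actin-binding protein, did not overlap in either run (-2.29 and -2.15). In the unbound RNA 19 of 25 actin genes were lower in both dendrite supernatants (paired-end), against 36.3% of all genes measured there. Cell adhesion and guidance genes gave 7 lower of 17 (41.2%: Thy1, Nrxn3, Plxna4, Nlgn1, Cadm2, Pcdh1 and Clstn1), with medians of -0.27 and -1.22. Without home cage soma 1 their paired-end home cage median turned from -0.22 to 0.20 relative to all genes. Neuronal transcription factors (5 lower and 1 higher of 17) and kinases and phosphatases of plasticity (4 lower and 1 higher of 14) also leaned lower, but agreed in 8 and 6 of 14 alternatives. Their shares agreeing lower were 29.4% and 28.6%. Without home cage soma 2 the paired-end home cage median of the transcription factors was 0.12 relative to all genes, against -0.16 with it.

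Motor proteins, microtubule proteins, proteasome and ubiquitin genes, RNA-binding proteins, splicing factors, chromatin factors, glycolysis, heat shock chaperones and secretory pathway genes did not agree as lists. Among 15 motors Kif5a and Myo6 agreed higher (13.3%) and Kif1a, Kif2a, Dync1h1, Dync1i2 and Dctn1 lower (33.3%), against 9.54% and 18.8% of all genes. Of 18 heat shock chaperones 0 agreed in either direction. The 17 small GTPase regulators of synapses were split, with Psd3, Agap2, Psd and Arhgap33 higher (23.5%) and Rasgrf1, Rab3a and Kalrn lower (17.6%). Of 28 RNA-binding proteins 4 agreed higher (Pabpc1, Hnrnpa1, Qk and Purb) and 6 lower (14.3% and 21.4%), near the 9.54% and 18.8% of all genes.

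The RNA left unbound differed in the same direction for most agreeing genes. In the paired-end run 97 of 140 genes agreeing higher that were measured in the supernatants (69.3%) were higher in both dendrite supernatants than in the soma one, against 36.7% of all 1288 genes. Of the 242 genes agreeing lower that were measured there, 129 (53.3%) were lower in both, against 36.3% of all. The single-end shares were 67.9% against 35.5% and 57.1% against 39.5%. The supernatants carry the names of 3 of the 8 immunoprecipitated libraries, hold 1 soma library, and were scaled among themselves. A difference in the tissue's total RNA and one in ribosome-bound RNA were not told apart by these comparisons.

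**Figure D4:**
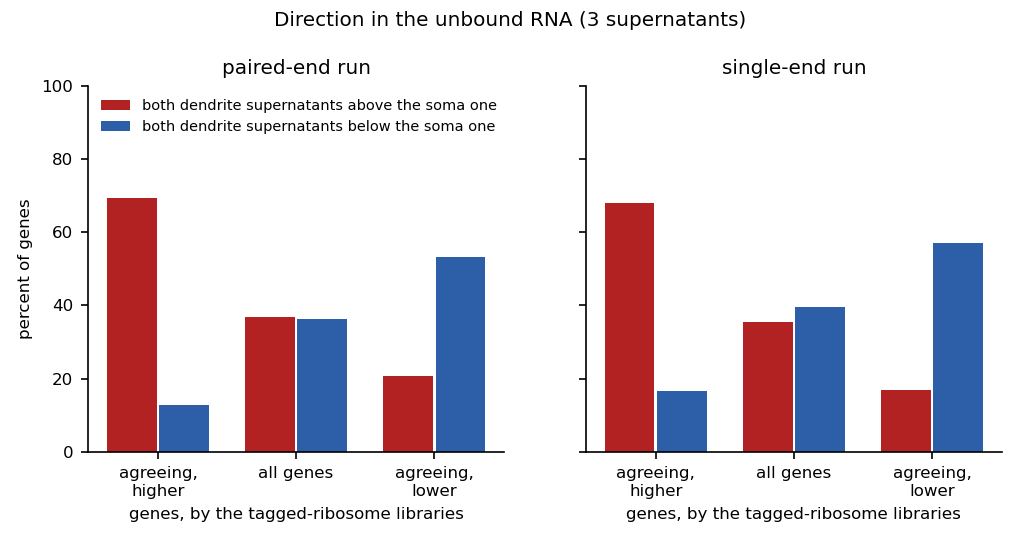
Share of genes, in percent, that were higher (red) or lower (blue) in both dendrite supernatants than in the one soma supernatant, for genes agreeing higher, all genes measured and genes agreeing lower in the tagged-ribosome libraries, paired-end (left) and single-end (right). The red bar is at 69.3 and the blue at 12.9 for genes agreeing higher in the paired-end run, and at 20.7 and 53.3 for genes agreeing lower.

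The part of the 3′ UTR left out of the measure gave the same picture in the same libraries. It was higher in dendrite in both behaviours for 35 of 73 genes agreeing higher (47.9%) in the paired-end run, against 21.4% of all 744 genes measured, and lower for 91 of 161 genes agreeing lower (56.5%), against 32.4%. The opposite direction was found for 9 of the 73 (12.3%) and 8 of the 161 (4.97%). In the single-end run the same direction held for 32 of 87 genes agreeing higher (36.8%, against 14.8% of all 862) and 92 of 173 agreeing lower (53.2%, against 33.5%), and the opposite one for 8 (9.2%) and 6 (3.47%). Being from the same libraries, it is not an independent replicate.

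Genes agreeing lower in dendrite had longer transcripts. The median length of the measured part was 1567 bases for genes agreeing higher, 2522 for those agreeing lower and 1816 for all 2034 genes. Leaving out ribosomal protein genes it was 1676, 2522 and 1893. With the genes in 4 equal groups by length, from shortest to longest, the share agreeing lower was 9.82, 15.7, 22.4 and 27.1%, while the share agreeing higher was 9.82, 12.6, 10.2 and 5.50%. The median GC content of the longest annotated transcript of the gene (GENCODE, GRCm38), known for 94.6% of the genes, was 50.4% for genes agreeing higher, 49.8% for those agreeing lower and 49.6% for all. What part of the length difference comes from RNA amplification or fragment selection was not tested.

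**Figure D5:**
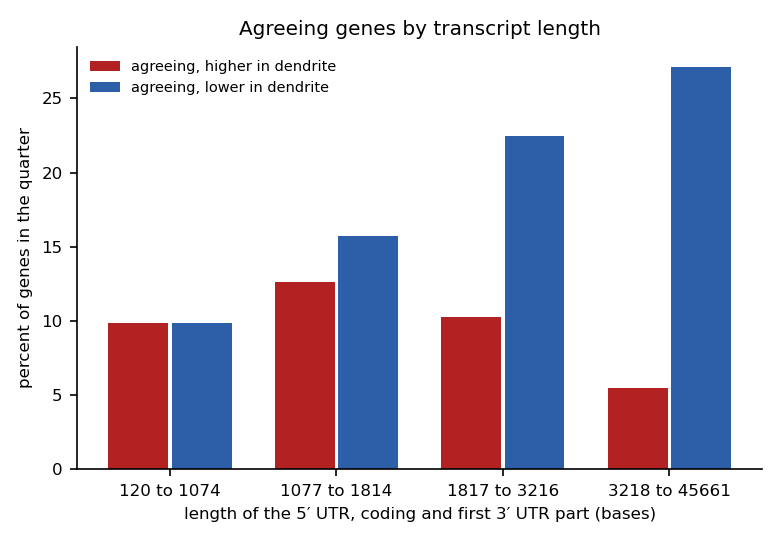
Share of genes agreeing higher (red) and lower (blue) in dendrite, in percent, in each of 4 equal groups of the 2034 genes by length of the measured part of the transcript in bases. Agreeing lower goes from 9.82% in the shortest to 27.1% in the longest group, and agreeing higher is lowest, at 5.50%, in the longest.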

How the data were processed

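Per the labels' protocols, a Nugen Ovation RNA-Seq System V2 kit amplified the tagged-ribosome RNA. Tools listed in the submitters' processing notes are Cufflinks 2.0.2, STAR 2.1.1d and CASAVA 1.9, with the build mm9. The deposited values are FPKM per gene in a paired-end and a single-end table, with separate columns for the 5′ UTR, coding sequence and first stretch of the 3′ UTR (used here) and for the rest of the 3′ UTR. How strand and reads with several matches were handled is not stated in those sources.

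Within each table FPKM were divided by a median-ratio factor over genes above 0 in all 8 immunoprecipitates (870 and 428 genes). Genes with a mean of at least 1 (2928 and 3835) were fitted on log2(scaled FPKM + 1) with limma 3.58.1 in R 4.3.3, with 4 group means and trended moderation, and p-values were adjusted by Benjamini-Hochberg over all genes of the table at a threshold of 0.05. A fold on this scale understates the change of low genes. Relative depth was read from the spacing of low values, of which 85.6 to 94.1% were whole reads within 0.15. The fit was tested on simulated data.

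The comparison and its 38 gene lists (1143 symbols, 48 without a row) were chosen with earlier results of these data known. Lists were described by counts and medians, without a test. Genes were named by a rule: up to 15 per direction whose higher location averaged 10 or more in both tables, separated genes first, then those separated in the paired-end table, then other agreeing genes, ordered by the smaller difference, the 3 most abundant members of each list described, and 12 genes always named. A few genes that the rule or the lists would name are not reported here, though they stay in the fits and counts. Alternatives were other pseudocounts (0.1 and 5), minima, scalings and moderation, a replicate block, pooled behaviours, the mean of both runs, and each library left out. Supernatants served as a second readout, scaled among themselves. Counting intervals were not given, as FPKM carry no counts. Start-site windows and the microRNA are from RefSeq GRCm38.p6, and no mm9 sequence was used.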

Additional observations from a re-analysis of the deposited data

Results flagged for a closer look

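In 17 of 134 groups of 4 libraries (dendrite or soma, 67 named genes, paired-end, log2 scale) 1 library was flagged as apart from the other 3, which is 12.7%. For normal values chance flags about 1 in 20 groups (5%). A group with 3 libraries at 0 and 1 above it is flagged however small that value is, so these shares cannot be compared. In fear conditioned dendrite 1, 5 genes were flagged as above the other dendrite libraries: AK081204 at 3.16 and Ddx26b at 0.274, both listed at 0 in the other 3, Nrgn at 1.11 against 0, Scn8a at 0.835 against at most 0.0489, and Gnai1, a G protein subunit, at 45.4 against at most 0.186. Gnai1 was also high there in the single-end run, at 10 against at most 0.195. In fear conditioned dendrite 2, Grin1, the obligate NMDA receptor subunit, stood at 14 against at most 1.31, and Nell1 at 0.0563 against 0.

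In home cage dendrite 2, Synpo, the spine apparatus protein synaptopodin, stood at 87.1 against at most 0.621. In home cage dendrite 1, mt-Nd4 was low at 12.9 against at least 33.9, and Thy1, a neuronal surface protein, was listed at 0 against at least 3.57.

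In home cage soma 2, Grm5 stood at 0.0558 against at least 17.1, Mtap2 at 1.03 against at least 12.4, and Rmrp, the RNA of ribonuclease MRP, at 1670 against at most 138. In fear conditioned soma 1, Aldoc stood at 48.0 against at most 0.329, and Eif3h at 0.930 against at most 0.0525. In fear conditioned soma 2, Chd3 stood at 1.98 against at most 0.604, and Ndufa4, a respiratory chain protein, at 4.21 against 0.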

How the results depend on the processing

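With 4 libraries per location and many values of 0, single genes were imprecise. Lone libraries left after an omission were assumed to vary like the other groups. In the paired-end run the count of genes past the limma threshold went from 0 to 1 with FPKM as deposited, and the single-end table gave 1. In the home cage contrast it went to 1 with FPKM as deposited and to 0 to 15 without single libraries. In the single-end run the 1 gene became 2 with a pseudocount of 0.1, a minimum of 5, robust moderation or pooled behaviours, and 0 with a pseudocount of 5, no minimum, upper-quartile scaling or any library left out. In its home cage contrast 0 became 1 with a pseudocount of 0.1 or robust moderation and 3 with a minimum of 5. The cause was not tested.

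The number of genes tested in both runs changed with the setting. Genes agreeing higher were 472 of 11780 with no minimum and 68 of 410 with a minimum of 5. They were 330 of 2458 as deposited and 322 of 2081 with upper-quartile scaling. Without single libraries they were 153 to 257, with 1779 to 2371 genes tested. Those agreeing lower were 1235 of 11780 with no minimum, 59 of 410 with a minimum of 5 and 228 to 441 without single libraries. Separated genes were 4 higher and 2 lower of 410 with a minimum of 5, and 15 and 6 of 2458 as deposited. With upper-quartile scaling 13 of 2081 were higher. Without single libraries 9 to 20 were higher and 22 to 108 lower, where fewer libraries ease the criterion.

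With the replicate number as a block, 1 gene passed in the paired-end run (Atpase6, limma adjusted p = 0.00211) and 2 in the single-end run (Mir1906-1, 1.54e-05, and AK191723, 0.0148). Deviations of same-numbered dendrite and soma libraries correlated at -0.000976 and 0.0562 (home cage and fear conditioned, paired-end) and at -0.0106 and 0.0388 (single-end). With sparse values such correlations cannot settle whether same-numbered libraries came from the same mice, which the labels do not say.

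Of the log2 differences of single named genes under the alternatives 1234 kept their side, 2 passed the threshold anew and 34 changed sign. The single-end table turned Prkce (1.53) to -0.97, Snap25 (0.15) to -0.90, Scn2b (-0.31) to 0.12, Synpo (0.30) to -0.85 and Mtap2 (0.74) to -0.0847. The mean of both runs turned Snap25 to -0.37 and Synpo to -0.27. Aplp1 (-0.11) became 0.17 with a pseudocount of 0.1, 0.44 as deposited, 0.25 with upper-quartile scaling, 0.23 in the single-end table and 0.0597 in the mean of both runs. Rpph1 (-0.06) became 0.92 as deposited and 0.16 with upper-quartile scaling. Without single libraries the ranges were -1.53 to 0.0848 for Tcf25, -0.94 to 1.22 for Snap25, -1.45 to 0.84 for Scn2b, -1.12 to 0.93 for Aplp1, -0.99 to 0.83 for Rpph1, -4.39 to 0.81 for Sdhc, -0.0593 to 1.9 for Cox8a, -1.23 to 1.96 for Synpo and -0.0450 to 1.61 for Mtap2.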
